A study of Mus musculus with 9 samples.

Results

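Induced regulatory T cells (iTreg) of mouse group 2 were compared with those of mouse group 1 by mRNA sequencing. All 9 libraries of the series entered, sorted by the mouse group number in their labels and not by any measured value. Mouse group 1 held 5 libraries, from wild-type (WT) replicates 1 and 3 and Glut1 transgenic (Glut1Tg) replicates 2, 3 and 4. Mouse group 2 held 4 libraries, from WT replicates 2, 4 and 5 and Glut1Tg replicate 1. All mice were C57BL/6J, and the Glut1Tg mice carried a transgene of the glucose transporter Glut1, whose gene is Slc2a1. What sets the mouse groups apart, the promoter of the transgene, the ages of the mice, the inducing agents and the time in culture are not stated in the sources available here. Nothing says that each library is its own animal or culture. P-values therefore measure only how far these libraries spread, and that spread may be technical. Genotype was a term in the model because the mouse groups held unequal numbers of each genotype.

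Naive CD4 T cells become iTreg when they are stimulated through the T cell receptor with interleukin-2 and transforming growth factor beta, which brings on the lineage factor Foxp3. Stimulated T cells enlarge, switch to anabolic metabolism and enter the cell cycle, and they lose the transcripts of resting cells such as the homing receptors Ccr7 and S1pr1. Nuclear factor kappa B (NF-kB) is held inactive by inhibitors that its own activity induces, and MAP kinase phosphatases, the Dusp genes, end MAP kinase signals. The circadian clock is a feedback loop in which Clock and Arntl drive the Per, Cry and Nr1d repressors, which in turn silence their activators.

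Counts per library summed to between 20881035 and 31196428, the 10 most abundant genes took 5.04% to 6.79% of them, and mitochondrially encoded genes had 1.59% to 2.58%. The T cell genes Cd3e and Cd4 stood at 288 to 411 and 448 to 721 CPM in mouse group 1 and at 344 to 389.6 and 709 to 802 CPM in mouse group 2, and Foxp3 was detected at 621 to 882 and 822 to 1164 CPM. CPM are counts scaled to the TMM-adjusted library total. Principal components of log2 CPM set 3 libraries apart: WT replicate 2 and Glut1Tg replicate 1, both of mouse group 2, on the first component, and Glut1Tg replicate 3, of mouse group 1, on the second. The other libraries of mouse group 2, WT replicates 4 and 5, lay together on the third component, at -50.3 and -45.7, where mouse group 1 scored 5.82 to 29.5. Across genes, which are not independent replicates, r was 0.987 between WT replicate 2 and Glut1Tg replicate 1 and 0.981 between WT replicates 4 and 5. It was 0.938 to 0.987 within mouse group 1, 0.926 to 0.987 within mouse group 2 and 0.8945 to 0.967 between the groups. Glut1Tg replicates 2 and 4, of mouse group 1, expressed the female-specific RNA Xist (256 and 340.2 CPM), and the other libraries had at most 1.32 CPM.

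**Figure D1:**
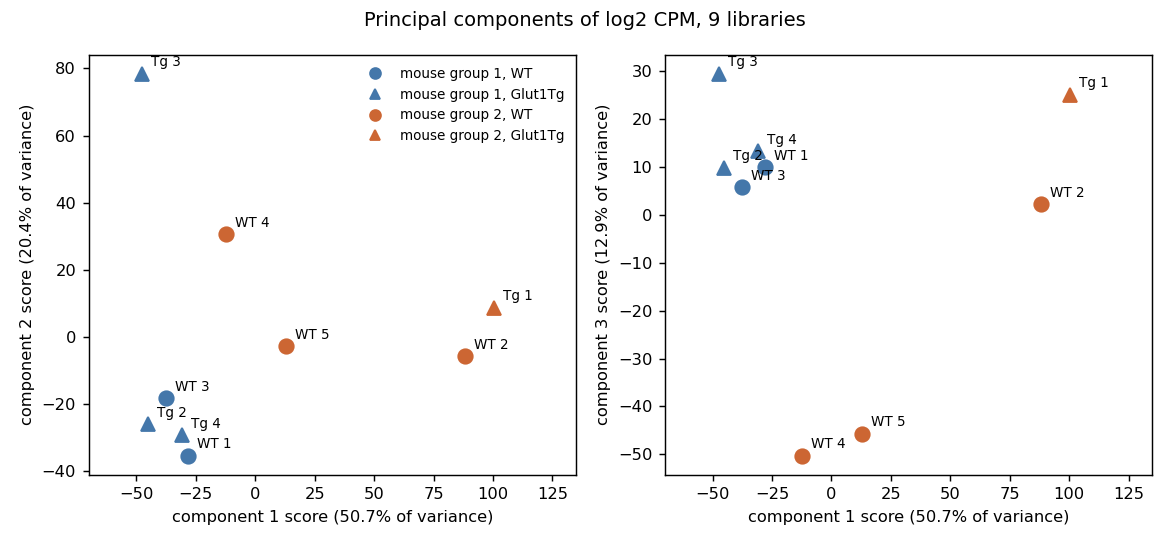
Scores of the 9 libraries on components 1 and 2 (left) and 1 and 3 (right) of log2 CPM, with mouse group by colour and genotype by shape. The libraries of mouse group 2 form 2 pairs, at 88.2 and 100.5 and at -12.3 and 12.8 on component 1, and Glut1Tg replicate 3 of mouse group 1 lies away from its group, at 78.4 on component 2.

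Of 14817 genes tested, 3576 (24.1%) passed at an adjusted p under 0.05 by edgeR's quasi-likelihood test (39.4% at an unadjusted p under 0.05). Of these calls 1946 (13.1%) were higher and 1630 (11.0%) lower in mouse group 2. The median of their absolute log2 fold changes was 0.99, and 1771 differed by more than 1 on the log2 scale (962 higher, 809 lower). Over all genes tested the median was -0.01. All 4 libraries of mouse group 2 lay above all 5 of mouse group 1 for 1552 genes (10.5%) and below them for 1684 (11.4%). The count depended on which libraries entered. It was 668 without Glut1Tg replicate 1 and 593 (4.00%) without both that library and WT replicate 2, of which 213 (1.44%) were higher and 380 (2.56%) lower. It was 1916, 1966 and 2134 without WT replicates 1, 3 and 2, 2634 and 2525 without Glut1Tg replicates 2 and 4, and 3356, 4126 and 4552 without WT replicate 5, WT replicate 4 and Glut1Tg replicate 3. Without the 3 libraries apart on the first and second components it was 3322, of which 1428 were higher and 1894 lower, a setting chosen after seeing the data. The share of calls that were higher moved from 54.4% to 34.1% without Glut1Tg replicate 1.

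The WT libraries alone were compared next, which asks whether the difference holds within 1 genotype. These comparisons share the WT libraries, so their values are given side by side. Within WT, 3 libraries against 2, 642 genes (4.33%) passed by edgeR, 204 (1.38%) higher and 438 (2.96%) lower in mouse group 2, and the median over all genes was 0.04. This count rests on few libraries: it was 0 by edgeR without any of WT replicates 1, 3, 4 or 5, where an unadjusted p under 0.05 was reached by 1587, 1756, 3631 and 2883 genes. It was 2863 without WT replicate 2. DESeq2 called 2123 genes and limma-voom 550 with all 5 libraries. The Glut1Tg libraries had no part in that test and gave a check on other samples. Of the 204 genes called higher within WT, 190 (93.1%) were higher in Glut1Tg replicate 1 than in each of the 3 Glut1Tg libraries of mouse group 1, where 36.9% of all genes were. Of the 438 called lower, 398 (90.9%) lay below all 3, where 36.7% of all genes did, and 0 and 1 genes lay beyond the others on the opposite side. The median log2 CPM difference of Glut1Tg replicate 1 from the mean of the others was 1.12 for genes higher and -1.03 for genes lower within WT, against -0.01 for all genes. With 1 library on 1 side, this part has no replicate.

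**Figure D2:**
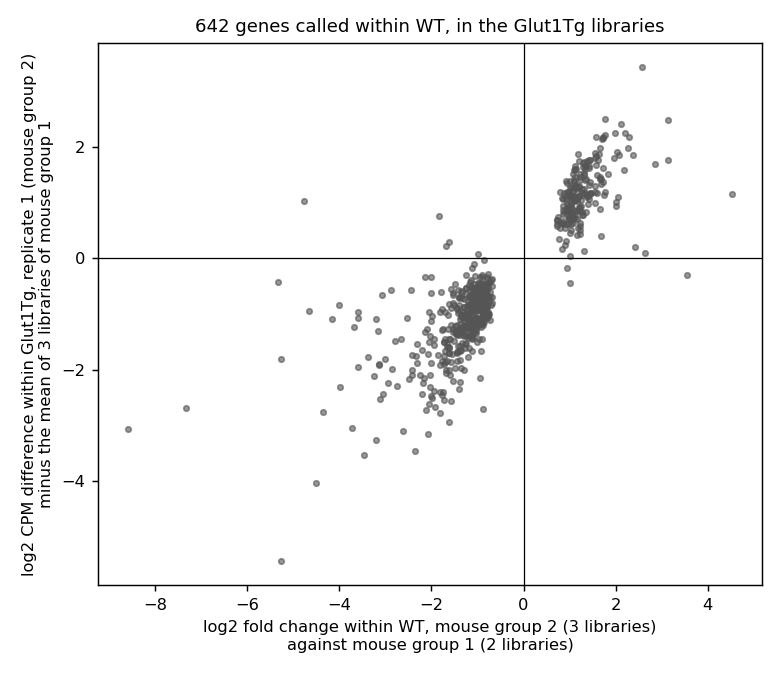
Each point is 1 of the 642 genes called within WT, with its log2 fold change in the WT libraries on the x axis and the log2 CPM (offset 0.5) of Glut1Tg replicate 1 minus the mean of Glut1Tg replicates 2, 3 and 4 on the y axis. Of the 204 genes on the right 201 lie above 0, and of the 438 on the left 5 do.

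Whether the difference itself changed with genotype was tested by an interaction term. It called 0 genes by edgeR, with 786 (5.30%) at an unadjusted p under 0.05 and a lowest adjusted p of 0.741. DESeq2 called 2 and limma-voom 0. Without WT replicate 2, the interaction called 123 genes, and without Glut1Tg replicate 3 it called 3. A lack of calls with 1 Glut1Tg library in mouse group 2 does not show that the genotypes responded alike. The 3 genes with the smallest interaction p were Nsg2, Farp1 and Slc9a9, and none of them passed. Nsg2 stood at 189, 151, 188, 122 and 119.5 CPM in mouse group 1 and 82.6, 104, 88.2 and 21.1 CPM in mouse group 2.

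Below, values are given in the order WT replicates 1 and 3 and Glut1Tg replicates 2, 3 and 4 for mouse group 1, and WT replicates 2, 4 and 5 and Glut1Tg replicate 1 for mouse group 2. Log2 fold changes are mouse group 2 against mouse group 1, fitted by edgeR with genotype, and are given with their SE (±). Folds are the same ratio on the linear scale, so a fold under 1 is lower in mouse group 2. Counts of list members are to be read beside the shares of all genes tested. With all 9 libraries 13.1% were higher and 11.0% lower, and 10.5% lay above and 11.4% below without overlap. Within WT the called shares were 1.38% and 2.96%, and without WT replicate 2 and Glut1Tg replicate 1 they were 1.44% and 2.56%.

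A first set of gene lists had means on the same side of mouse group 1 in all 4 libraries of mouse group 2. The clock genes were lower as a group. Relative to mouse group 1, their list mean was -1.16 in WT replicate 2 and -1.23 in Glut1Tg replicate 1. It was less low in WT replicates 4 and 5, at -0.82 and -0.81. Of 23 clock genes, a list chosen after gene values had been seen, 14 were lower and 1 was higher, and 14, with or without a call, lay below mouse group 1 in every library of mouse group 2. Their median log2 fold change was -1.19. Within WT 7 were lower and 0 higher (median -0.76), and without WT replicate 2 and Glut1Tg replicate 1 the numbers were 7 and 1 (median -0.63). Fewer cells of a type and less RNA per cell cannot be told apart in these bulk samples, here or below.

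Per1, a repressor of the clock loop (chromosome 11 from 69095217 to 69109960, plus strand, mm10), stood at 482, 544, 553, 240.4 and 532 CPM in mouse group 1 and 46.5, 89.7, 114 and 47.5 CPM in mouse group 2. No library of mouse group 2 reached the lowest of mouse group 1, and the gene was lower. Per1 showed a fold of 0.139 (95% interval 0.0789 to 0.247; log2 -2.84 ± 0.37; adjusted p = 0.00213; within WT log2 -2.61, adjusted p = 0.0279). Nr1d2, a nuclear receptor that silences Arntl, stood at 218, 154, 175, 96.3 and 153 CPM in mouse group 1 and 36.96, 54.1, 46.95 and 24.1 CPM in mouse group 2. Nr1d2 showed a fold of 0.215 (95% interval 0.147 to 0.317; log2 -2.21 ± 0.25; adjusted p = 0.0016). Cry2, the partner of the Per proteins, had a narrower spread, at 43.2, 52.3, 50.8, 44.99 and 47.7 CPM in mouse group 1 and 12.9, 19.2, 18.5 and 11.9 CPM in mouse group 2. Cry2 showed a fold of 0.3103 (95% interval 0.233 to 0.414; log2 -1.69 ± 0.18; adjusted p = 0.00152). Both separated the groups without overlap, with Glut1Tg replicate 1 the lowest library of all for each.

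Other lower clock genes were Bhlhe41, a repressor that competes at E-boxes (-3.14 ± 0.403, adjusted p = 0.00213), Nfil3, a repressor of D-box genes (-1.49 ± 0.19, adjusted p = 0.00222), and Rora, an activator of Arntl (-1.87 ± 0.304, adjusted p = 0.00461). Per2 (-1.84 ± 0.498), Nr1d1 (-1.99 ± 0.39), Ciart (-1.61 ± 0.32), Csnk1e (-1.16 ± 0.35), Csnk1d (-0.33 ± 0.0998), Bhlhe40 (-0.65 ± 0.197) and Tef (-0.8998 ± 0.24) were lower too. The activators did not follow: Arntl stood at 17.2 to 37.996 and 24.6 to 35.02 CPM in mouse groups 1 and 2 (-0.13 ± 0.21, adjusted p = 0.673), Clock did not pass (-0.44 ± 0.17, adjusted p = 0.089), and Npas2, which can replace Clock, was the higher member (1.29 ± 0.36, adjusted p = 0.0327). Dbp, an output gene that the loop drives through E-boxes, did not pass (0.498 ± 0.29, adjusted p = 0.235).

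MAP kinase phosphatases, also a list chosen after values had been seen, had 10 members measured, of which 3 were lower and 0 higher (median -0.61; 4 lower within WT, and 3 lower without WT replicate 2 and Glut1Tg replicate 1). Dusp10, which acts on JNK and p38, stood at 103, 96.8, 83.9, 75.6 and 88.5 CPM in mouse group 1 and 20.7, 35.2, 28.5 and 15.2 CPM in mouse group 2. Dusp10 showed a fold of 0.2404 (95% interval 0.174 to 0.331; log2 -2.06 ± 0.21; adjusted p = 0.00129). Dusp16, a JNK phosphatase, stood at 87.95, 65.6, 66.1, 28.8 and 70.1 CPM in mouse group 1 and 9.25, 4.16, 5.71 and 12.8 CPM in mouse group 2. Dusp16 showed a fold of 0.126 (95% interval 0.0656 to 0.244; log2 -2.98 ± 0.42; adjusted p = 0.00289). Dusp8 was low throughout, at 2.88 to 6.28 CPM in mouse group 1 and 0.113 to 0.403 CPM in mouse group 2 (-4.54 ± 0.404, adjusted p = 0.0012). In these 3 genes the groups did not overlap. Phosphatases that are typical immediate early genes or act on ERK did not pass, among them Dusp1 (-0.45 ± 0.37), Dusp2 (0.06 ± 0.21), Dusp5 (0.46 ± 0.18) and Dusp6 (-0.32 ± 0.12). The fourth call within WT was Dusp4 (-1.12, adjusted p = 0.041).

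NF-kB subunits, inhibitors and feedback genes, again a list chosen after values had been seen, were lower in 12 and higher in 1 of 27 (median -0.45; 6 and 0 within WT, and 3 and 0 without WT replicate 2 and Glut1Tg replicate 1). Relb, the subunit of the noncanonical pathway, stood at 206, 195, 233, 179 and 242 CPM in mouse group 1 and 61.9, 63.98, 69.1 and 70.9 CPM in mouse group 2. Relb showed a fold of 0.325 (95% interval 0.265 to 0.398; log2 -1.62 ± 0.13; adjusted p = 0.0012). The spread within each group was small against the gap between them. Birc3, a ubiquitin ligase that holds the noncanonical pathway in check, stood at 259, 239.7, 252, 173 and 249 CPM in mouse group 1 and 102, 87.8, 102 and 106 CPM in mouse group 2. Birc3 showed a fold of 0.4195 (95% interval 0.3300 to 0.533; log2 -1.25 ± 0.15; adjusted p = 0.00196). Otulin, which removes linear ubiquitin chains, stood at 170.1, 171, 200.2, 163 and 186 CPM in mouse group 1 and 69.1, 77.4, 73.04 and 76.9 CPM in mouse group 2. Otulin showed a fold of 0.425 (95% interval 0.357 to 0.507; log2 -1.23 ± 0.11; adjusted p = 0.0012). All 3 lacked overlap and were called in each fit that left out 1 library.

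Of the subunits, Rel (-1.12 ± 0.24, adjusted p = 0.0127) and Rela (-0.48 ± 0.12, adjusted p = 0.0238) were lower, while Nfkb1 (0.55 ± 0.195, adjusted p = 0.0669) and Nfkb2 (-0.496 ± 0.29, adjusted p = 0.229) did not pass. Of the inhibitors, Nfkbie (-1.24 ± 0.22) and Nfkbib (-0.45 ± 0.13) were lower, with adjusted p of 0.00649 and 0.037, Nfkbia did not pass (-0.43 ± 0.37), and Nfkbid was the higher member (0.81 ± 0.15, adjusted p = 0.00742). Ripk2, the kinase that relays NOD receptor signals, was lower (-1.72 ± 0.31, adjusted p = 0.00633), but Glut1Tg replicate 3 stood at 36.0 CPM, far below the 90.3 to 102 CPM of the rest of mouse group 1. Tnip1, a ubiquitin-binding inhibitor, stood at 676, 753, 768, 304 and 765 CPM in mouse group 1 and 243, 251, 337 and 227 CPM in mouse group 2 and overlapped in that library (-1.39 ± 0.28, adjusted p = 0.0102).

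Promoter windows were read from RefSeq for build GRCm38.p6, the build of mm10, to show the sequence in front of genes of these groups. The windows run from 250 bases before to 50 after a transcription start, and 9989 of 14811 symbols tested matched. The E-box CACGTG was in the window of 11.5% of all genes, 10.6% of genes higher, 13.4% of genes lower and 17.5% of genes lower within WT. It was in 5 of 18 clock genes with a window (27.8%). NF-kB motifs, GGGANNTCC or the longer immunoglobulin kappa enhancer site, were in 6.97% of all, 7.75% of higher and 6.68% of lower genes, and in 8 of 22 NF-kB genes (36.4%). The E2F motifs TTTGGCGC, TTTCCCGC and TTTCGCGC were in 3.99% of all, 5.93% of higher and 3.39% of lower genes, and in 15 of 38 DNA replication genes (39.5%). The cell cycle homology region, CHR, with the letters TTTGAA, was in 14.4% of all, 16.9% of higher and 13.1% of lower genes, and in 28 of 38 mitosis genes (73.7%). CCAAT was in 42.8% of all, 47.7% of higher and 42.2% of lower genes, and the interferon-stimulated response element in 3.79%, 3.64% and 3.02%, and in 14 of 155 genes higher within WT (9.03%). Both strands were searched, a match is a description and not a binding site, and no share was tested. Matches that overlap are shown as a single run of capitals.

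Printed here are the 250 bases before the start, 5′ to 3′ on the strand of the gene, for called genes with a motif match and no annotated exon in that stretch. They were chosen after values had been seen and stand for the 4 groups: Mcm6 (DNA replication, chr1:128359706-128359955, minus strand, E2F matches in capitals), Top2a (mitosis, chr11:99024190-99024439, minus strand, CHR matches in capitals), Tef (clock, chr15:81811164-81811413, plus strand, E-box in capitals) and Tnip1 (NF-kB feedback, chr11:54962941-54963190, minus strand, overlapping NF-kB matches in capitals).
Mcm6: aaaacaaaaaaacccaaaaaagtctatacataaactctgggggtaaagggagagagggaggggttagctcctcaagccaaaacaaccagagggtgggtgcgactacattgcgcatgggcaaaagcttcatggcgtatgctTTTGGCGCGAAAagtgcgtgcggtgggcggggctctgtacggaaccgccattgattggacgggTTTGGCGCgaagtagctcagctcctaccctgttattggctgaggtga
Top2a: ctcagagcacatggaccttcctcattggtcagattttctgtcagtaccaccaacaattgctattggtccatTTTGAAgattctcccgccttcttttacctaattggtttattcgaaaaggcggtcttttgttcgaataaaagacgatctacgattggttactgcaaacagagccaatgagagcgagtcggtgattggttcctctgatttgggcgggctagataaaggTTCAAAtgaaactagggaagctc
Tef: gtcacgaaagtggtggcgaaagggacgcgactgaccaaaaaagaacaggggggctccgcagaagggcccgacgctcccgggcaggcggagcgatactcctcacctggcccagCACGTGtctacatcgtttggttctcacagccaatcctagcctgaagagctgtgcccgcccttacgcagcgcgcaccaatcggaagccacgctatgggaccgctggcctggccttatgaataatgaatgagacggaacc
Tnip1: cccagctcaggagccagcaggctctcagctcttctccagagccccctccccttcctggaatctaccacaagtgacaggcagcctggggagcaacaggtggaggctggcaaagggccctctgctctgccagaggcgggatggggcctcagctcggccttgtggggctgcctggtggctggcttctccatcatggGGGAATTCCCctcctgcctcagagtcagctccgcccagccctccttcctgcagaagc

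Among RNA-processing genes, Rbm39 and Ythdc1 had a small spread within each mouse group, while Clk1 and Srsf1 varied more within mouse group 2. Of 23 SR proteins, their kinases and related splicing factors, a list chosen after values had been seen, 7 were lower and 2 higher (median -0.14; 2 and 1 within WT, and 3 and 1 without WT replicate 2 and Glut1Tg replicate 1). Rbm39, a splicing factor that acts with U2AF, stood at 1177, 1044, 993, 1036 and 1006 CPM in mouse group 1 and 374, 432, 436 and 338 CPM in mouse group 2. Rbm39 showed a fold of 0.358 (95% interval 0.295 to 0.434; log2 -1.48 ± 0.12; adjusted p = 0.0012). Ythdc1, a nuclear reader of N6-methyladenosine, stood at 288, 266, 255, 224 and 257 CPM in mouse group 1 and 124, 116, 123 and 112 CPM in mouse group 2. Ythdc1 showed a fold of 0.445 (95% interval 0.376 to 0.527; log2 -1.17 ± 0.11; adjusted p = 0.0012). Clk1, a kinase of SR proteins, was lower too (-1.399 ± 0.22, adjusted p = 0.00406). Srsf1, the prototype SR protein, went the other way, at 81.9, 82.7, 83.95, 113 and 84.9 CPM in mouse group 1 and 372, 216, 223 and 422 CPM in mouse group 2. Srsf1 showed a fold of 3.71 (95% interval 2.69 to 5.12; log2 1.89 ± 0.21; adjusted p = 0.00152). Within mouse group 2 its higher values were those of WT replicate 2 and Glut1Tg replicate 1, and the groups did not overlap.

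Of 48 Rab GTPases, which direct vesicle traffic, a list chosen after values had been seen, 7 were higher and 9 lower (median -0.21). Within WT 3 were higher and 4 lower. Of all genes tested 13.1% were higher and 11.0% lower. Rab5a, of early endosomes, stood at 145, 119, 125, 139.8 and 131 CPM in mouse group 1 and 55.5, 53.98, 50.3 and 49.96 CPM in mouse group 2. Rab5a showed a fold of 0.394 (95% interval 0.328 to 0.473; log2 -1.34 ± 0.12; adjusted p = 0.0012). Rab12 (-1.38 ± 0.13, adjusted p = 0.0012) and Rab14 (-1.02 ± 0.11, adjusted p = 0.00152), of recycling routes, were lower, and Rab21, of integrin traffic, was higher (1.11 ± 0.14, adjusted p = 0.00198). Of 313 zinc finger genes with Zfp symbols, 38 were higher and 50 lower (median -0.14), beside the same shares of all genes. Zfp281, a zinc finger transcription factor, was lower (417 ± 141 against 95.1 ± 10.9 CPM in mouse groups 1 and 2, SD, n = 5 and 4; -2.25 ± 0.296), and Zfp7 was higher (1.59 ± 0.18). Zfp472 (-1.49 ± 0.14), Zfp655 (-1.28 ± 0.13) and Zfp868 (-1.84 ± 0.19) were lower, and all 5 were called in every fit that left out 1 library.

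Among single genes called higher within WT with the smallest p were Irf2bp1, a corepressor of Irf2, Zbtb7b, the factor ThPOK that fixes the CD4 lineage, and Pura, a single-stranded nucleic acid binder. Irf2bp1 stood at 13.2, 12.9, 15.9, 17.2 and 12.5 CPM in mouse group 1 and 37.4, 44.8, 46.99 and 46.97 CPM in mouse group 2. Irf2bp1 showed a fold of 3.22 (95% interval 2.56 to 4.06; log2 1.69 ± 0.15; adjusted p = 0.0012; within WT 1.73, adjusted p = 0.0226). Zbtb7b stood at 29.2, 35.9, 32.98, 20.7 and 32.04 CPM in mouse group 1 and 125, 92.01, 102 and 124 CPM in mouse group 2. Zbtb7b showed a fold of 3.66 (95% interval 2.72 to 4.91; log2 1.87 ± 0.19; adjusted p = 0.00129; within WT 1.71, adjusted p = 0.0226). In both genes the groups were far apart and each group was narrow. Pura (1.68 ± 0.12, adjusted p = 0.00105) behaved likewise, at 22.8 to 26.04 and 67.1 to 85.5 CPM. In the other direction within WT came Rnf19a, a ubiquitin ligase (-2.1998, adjusted p = 0.0181), Mtmr10, a myotubularin-related gene (-2.31, adjusted p = 0.0208), and Abcg1, a cholesterol exporter (-2.05, adjusted p = 0.0208). In these and in Zfp281, Glut1Tg replicate 3 was the lowest library of mouse group 1.

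**Figure D3:**
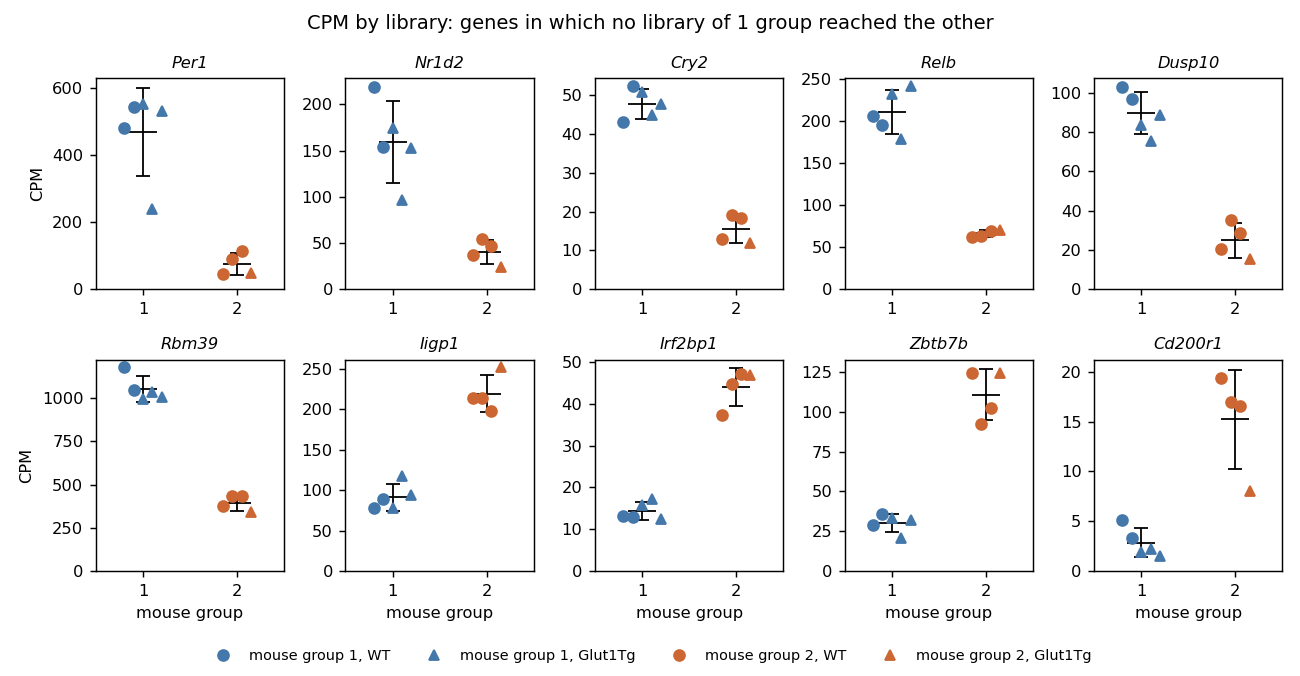
CPM of 10 genes in every library, by mouse group, with the mean and SD of each group as a line and bar. Relb and Rbm39 lie in narrow bands at 179 to 242 against 61.9 to 70.9 and at 993 to 1177 against 338 to 436 CPM, and in none of the 10 genes do the groups overlap.

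The largest differences among genes of at least 5 CPM without overlap were read next. Lower in mouse group 2 were Cd163l1, a scavenger receptor of gamma delta T cells, at 7.39, 9.17, 3.43, 25.8 and 6.16 CPM in mouse group 1 and 0.0406, 0.666, 0.366 and 0.0378 CPM in mouse group 2. Cd163l1 showed a fold of 0.0261 (95% interval 0.00543 to 0.126; log2 -5.26 ± 1.01; adjusted p = 0.00806). Its level was close to 0 in WT replicate 2 and Glut1Tg replicate 1, so the fold is imprecise. Apol8, an apolipoprotein L gene, was lower (-3.897 ± 0.496, adjusted p = 0.00209). Crtam, an adhesion receptor of cytotoxic T cells, stood at 15.5, 17.8, 12.4, 20.2 and 15.6 CPM in mouse group 1 and 0.974, 1.92, 1.57 and 0.908 CPM in mouse group 2. Crtam showed a fold of 0.0765 (95% interval 0.0477 to 0.123; log2 -3.71 ± 0.302; adjusted p = 0.0012). Zbtb10 (-2.63 ± 0.25), Zc2hc1c (-2.97 ± 0.43) and Fam209 (-2.73 ± 0.498) were lower in every fit that left out 1 library, as were Crtam, Apol8 and Cd163l1. Blk, a Src-family kinase of B cells (-3.54 ± 0.88), Shd (-3.298 ± 0.69), Fam84b (-2.801 ± 0.64) and Pik3ip1, an inhibitor of PI3K (-2.63 ± 0.69), lost their call without Glut1Tg replicate 1 (adjusted p = 0.0694 for Shd).

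Higher in mouse group 2 were chiefly genes that stood highest in WT replicate 2 and Glut1Tg replicate 1. Fut7, which makes selectin ligands, stood at 4.48, 4.100, 3.43, 6.67 and 4.19 CPM in mouse group 1 and 47.7, 11.3, 17.2 and 65.1 CPM in mouse group 2. Fut7 showed a fold of 8.36 (95% interval 4.08 to 17.1; log2 3.06 ± 0.46; adjusted p = 0.00359). Ccr4, a skin and lung homing receptor of regulatory and Th2 cells, stood at 13.8, 12.1, 9.500, 12.1 and 9.27 CPM in mouse group 1 and 93.5, 22.1, 33.1 and 124 CPM in mouse group 2. Ccr4 showed a fold of 6.15 (95% interval 2.998 to 12.6; log2 2.62 ± 0.46; adjusted p = 0.00612). Egr3, an early factor downstream of the T cell receptor, stood at 1.57, 1.46, 1.04, 1.96 and 1.31 CPM in mouse group 1 and 13.6, 5.096, 8.34 and 19.9 CPM in mouse group 2. Egr3 showed a fold of 8.43 (95% interval 4.65 to 15.3; log2 3.08 ± 0.38; adjusted p = 0.00198). None of these genes overlapped between groups, but the levels of WT replicates 4 and 5 lay nearer to mouse group 1 than those of their companions. Ccl1, a chemokine of activated T cells (3.35 ± 0.51), Stxbp6 (3.004 ± 0.58), Nrep (2.71 ± 0.43), Mybl1 (2.49 ± 0.53) and Fignl1 (2.76 ± 0.55) were called with all 9 libraries, and these, Fut7 and Ccr4 lost the call without Glut1Tg replicate 1 (adjusted p = 0.0536 for Fut7 and 0.125 for Fignl1). Egr3, Hyal2, a hyaluronidase (2.87 ± 0.41), and Fam111a (2.48 ± 0.37) kept it in every fit that left out 1 library.

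Proliferation genes were higher as a group, mainly through those 2 libraries. Of 47 mitosis genes 37 were higher and 0 lower (median 1.296), and of 47 DNA replication genes 30 were higher and 0 lower (median 1.13). Within WT none passed in either list (medians 0.95 and 0.82). Still, 25 and 23 members lay above the 2 WT libraries of mouse group 1 in all 3 WT libraries of mouse group 2, where 22.5% of all genes did. With all libraries, 11 and 6 members lay above mouse group 1 without overlap. Without WT replicate 2 and Glut1Tg replicate 1 there were 0 and 1 higher genes (medians 0.42 and 0.26). The mean of the mitosis list, relative to mouse group 1, was 1.81 in both of these libraries, against 0.13 and 0.70 in WT replicates 4 and 5 and -0.46 to 0.27 in mouse group 1.

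Mki67, the proliferation antigen, stood at 507, 535, 346, 496 and 606 CPM in mouse group 1 and 1621, 393, 808 and 1652 CPM in mouse group 2. Mki67 showed a fold of 2.33 (95% interval 1.28 to 4.26; log2 1.22 ± 0.39; adjusted p = 0.0471). WT replicate 4 fell within mouse group 1, and the call was lost in 8 of the 9 fits that left out 1 library. Plk1, a kinase of mitotic entry, stood at 24.1, 24.9, 19.8, 41.8 and 30.03 CPM in mouse group 1 and 160.4, 51.9, 75.3 and 198 CPM in mouse group 2. Plk1 showed a fold of 4.79 (95% interval 2.73 to 8.37; log2 2.26 ± 0.36; adjusted p = 0.00433). Ccne1, the cyclin that opens S phase, stood at 10.5, 10.3, 9.798, 16.7 and 12.1 CPM in mouse group 1 and 71.7, 25.7, 27.9 and 90.8 CPM in mouse group 2. Ccne1 showed a fold of 5.05 (95% interval 2.93 to 8.69; log2 2.34 ± 0.35; adjusted p = 0.00353). These genes did not overlap between groups, and Ccne1 kept its call in every fit that left out 1 library, while Plk1 lost it without Glut1Tg replicate 1 (adjusted p = 0.0578).

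Nuf2, a kinetochore gene (1.97 ± 0.38), Bub1b (1.87 ± 0.38) and Ttk (1.93 ± 0.38), both of the spindle checkpoint, the replication genes Pola2 (1.104 ± 0.22) and Rpa1 (0.61 ± 0.12) and the maintenance methyltransferase gene Dnmt1 (1.99 ± 0.42) were higher, and each lost its call without Glut1Tg replicate 1 (adjusted p = 0.0977 to 0.143). Homologous recombination genes, a list chosen after values had been seen, were higher in 19 of 26 and lower in 0 (median 1.49; 1 higher within WT and 1 without the 2 libraries). Rad54l, a motor of strand exchange, stood at 5.68, 7.83, 4.48, 9.87 and 7.701 CPM in mouse group 1 and 73.8, 11.8, 21.8 and 84.2 CPM in mouse group 2. Rad54l showed a fold of 7.25 (95% interval 3.17 to 16.6; log2 2.86 ± 0.53; adjusted p = 0.00736). Rad54l lost its call without Glut1Tg replicate 1 (adjusted p = 0.102). Mus81, a nuclease that resolves branched DNA, was higher by less, at 19.1, 20.8, 19.9, 26.4 and 23.002 CPM in mouse group 1 and 42.1, 40.5, 42.1 and 38.1 CPM in mouse group 2 (0.93 ± 0.14, adjusted p = 0.00371; within WT 1.06, adjusted p = 0.0322).

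Replication-dependent histone genes were higher in 14 and lower in 1, Hist1h1c, of 30 measured of 41 listed (median 1.32). The called members named by the rule, Hist1h2bb, Hist1h2bj, Hist1h3g and Hist1h4f, lay at or under 8.93 CPM, their transcripts lack the poly(A) tail that mRNA kits select, and reads could be split among near-identical copies. Of 24 G1 cyclins and cell cycle inhibitors 10 were higher and 2 lower (median 0.82), with Ccnd3 (0.898 ± 0.17), E2f2 (1.03 ± 0.26) and the inhibitor Cdkn2c (1.29 ± 0.303) among the higher. All 3 lost their calls without Glut1Tg replicate 1 (adjusted p = 0.089 to 0.204).

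Markers of other cells differed between libraries, and the lists did not all go the same way. The summed level of 11 mast cell and basophil markers measured, of 13 listed, was 130.2, 910, 236 and 94.8 CPM in WT replicates 2, 4 and 5 and Glut1Tg replicate 1 of mouse group 2, and 319 to 2682 CPM in mouse group 1. For 13 myeloid markers of 20 listed it was 12.9, 61.7, 32.0 and 7.22 CPM against 29.4 to 485 CPM. For 10 MHC class II and dendritic cell markers of 15 listed it was 171.5, 188, 180 and 219 CPM. In mouse group 1 it was 662 CPM in Glut1Tg replicate 3 and 151 to 192 CPM in the rest. Cpa3, the mast cell carboxypeptidase, stood at 151, 286, 364, 1670.0 and 116 CPM in mouse group 1 and 2.48, 524, 91.3 and 3.56 CPM in mouse group 2, a range that made its fold uninformative (log2 -1.47 ± 2.09, adjusted p = 0.635). The lowest mast cell and myeloid sums were those of WT replicate 2 and Glut1Tg replicate 1, which had the highest proliferation means. With all libraries, none of the mast cell, myeloid, NK cell (4 of 10 measured) or erythroid and platelet (14 of 16) markers passed. Within WT 1 erythroid and platelet marker was higher. No measured marker was at 0 in all libraries of a group. Of 8 B cell, 8 CD8 T cell and 8 stromal markers measured, 1 each was lower, namely Blk, Crtam and Krt18, and the other 7 of each list did not pass. Blk did not stand for its list. The summed B cell markers were at 309, 864, 681 and 283 CPM in mouse group 2 and 509 to 696 CPM in mouse group 1. The median log2 fold changes of the mast cell, myeloid, NK cell and erythroid lists were -1.47, -1.23, -1.23 and -0.67 with all libraries, and 0.19, 0.34, 0.29 and 1.099 without WT replicate 2 and Glut1Tg replicate 1. The part of such cells in the results was not tested.

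**Figure D4:**
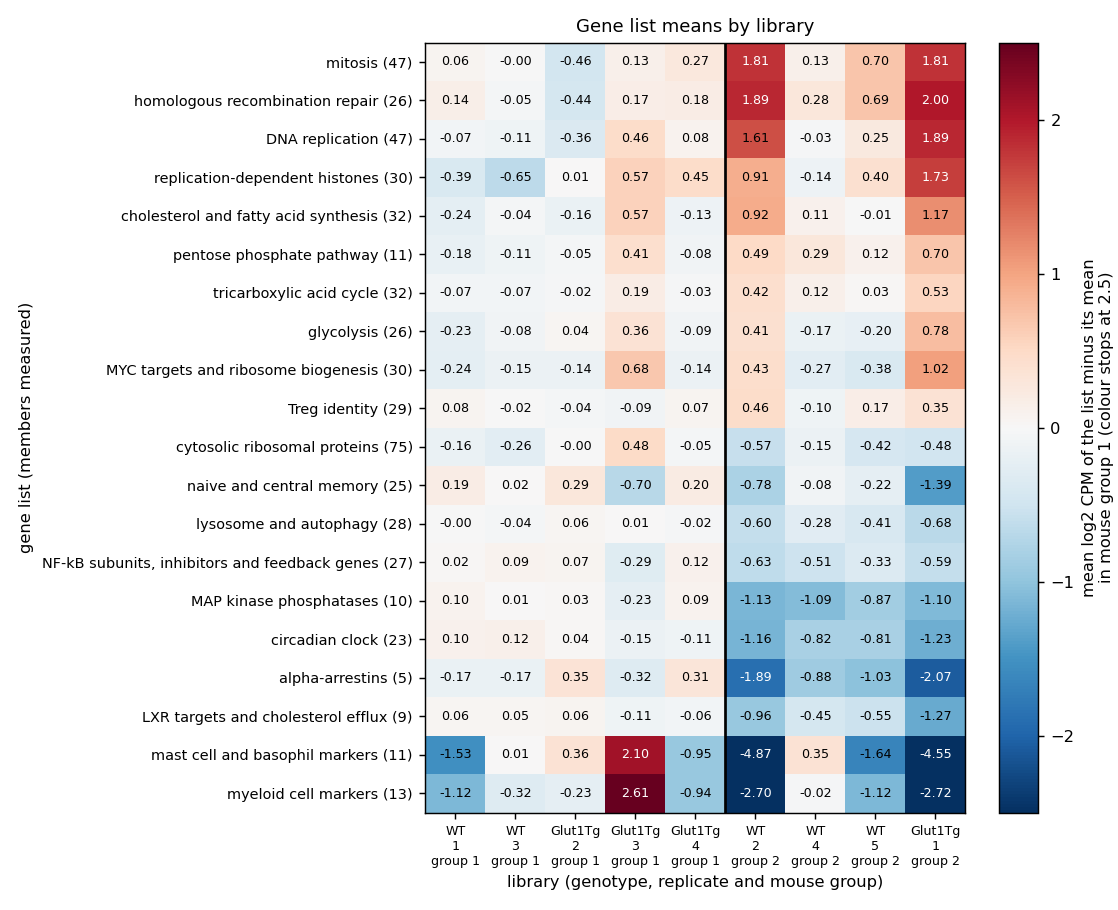
Mean log2 CPM of 20 gene lists in each library, minus the mean of the list in mouse group 1, with mouse group 1 left and mouse group 2 right of the line and the number of genes measured in parentheses. Clock genes lie at -1.16, -0.82, -0.81 and -1.23 in mouse group 2, while the mitosis list lies at 1.81 in WT replicate 2 and Glut1Tg replicate 1 and at 0.13 and 0.70 in WT replicates 4 and 5.

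Genes of resting T cells were lower. Of 25 naive and central memory genes 9 were lower and 0 higher (median -0.70; 1 lower and 1 higher within WT, none without WT replicate 2 and Glut1Tg replicate 1, with medians of -0.63 and -0.45). Btg1, an antiproliferative gene of quiescent cells, stood at 3015, 2524, 2942, 1843 and 2752 CPM in mouse group 1 and 649, 1552, 1212 and 468 CPM in mouse group 2. Btg1 showed a fold of 0.309 (95% interval 0.179 to 0.535; log2 -1.69 ± 0.35; adjusted p = 0.0108). Ccr7, which guides T cells to lymph nodes, stood at 1874, 1837, 2145, 512 and 1967 CPM in mouse group 1 and 468, 645, 598 and 407 CPM in mouse group 2. Ccr7 showed a fold of 0.2902 (95% interval 0.157 to 0.536; log2 -1.78 ± 0.39; adjusted p = 0.0133). Glut1Tg replicate 3 fell among the libraries of mouse group 2 for Ccr7 and for S1pr1, the receptor for lymph node exit (-1.798 ± 0.44). Foxo1, a transcription factor of quiescent T cells, was lower with overlap (-0.99 ± 0.22). All 4 lost their call without Glut1Tg replicate 1 (adjusted p = 0.0869 to 0.134), and within WT Ccr7 passed (adjusted p = 0.0233).

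Alpha-arrestins, adaptors that take nutrient transporters off the surface and a list chosen after values had been seen, were lower in 4 of 5 measured (median -1.74; 1 within WT, 0 without the libraries apart in mouse group 2). Txnip, which limits glucose uptake through Glut1, stood at 1082, 804, 1513, 892 and 1472 CPM in mouse group 1 and 206, 621, 510.2 and 159.6 CPM in mouse group 2. Txnip showed a fold of 0.299 (95% interval 0.137 to 0.654; log2 -1.74 ± 0.501; adjusted p = 0.0345). Arrdc3 (-2.31 ± 0.38) kept its call in every fit that left out 1 library, Arrdc4 (-2.15 ± 0.63), Arrdc2 (-1.03 ± 0.26) and Txnip did not (adjusted p up to 0.145, 0.18 and 0.192). Of 9 liver X receptor targets and cholesterol efflux genes 5 were lower and 0 higher (median -1.13; 2 within WT, 1 without the libraries apart in mouse group 2), among them Arl4c (-1.39 ± 0.25), Mylip, a ligase for the LDL receptor (-1.97 ± 0.43), and the exporters Abcg1 (-2.37 ± 0.43) and Abca1 (-1.03 ± 0.32). Arl4c was called in every fit that left out 1 library, and the others were not called without Glut1Tg replicate 1 (adjusted p = 0.0697 for Mylip and 0.0563 for Abcg1).

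Lysosome and autophagy genes were lower in 9 and higher in 2 of 28, and 13 lay below mouse group 1 in every library (median -0.46; 2 lower within WT and 2 without WT replicate 2 and Glut1Tg replicate 1). Sqstm1, the autophagy receptor p62, stood at 605, 596, 660.1, 463 and 591 CPM in mouse group 1 and 176, 317, 263 and 168 CPM in mouse group 2. Sqstm1 showed a fold of 0.367 (95% interval 0.2600 to 0.519; log2 -1.45 ± 0.22; adjusted p = 0.00387). Ulk1, the kinase that starts autophagy, stood at 216, 232, 209, 113 and 221 CPM in mouse group 1 and 84.5, 72.1, 99.2 and 76.3 CPM in mouse group 2. Ulk1 showed a fold of 0.397 (95% interval 0.283 to 0.556; log2 -1.33 ± 0.22; adjusted p = 0.00461). Neither overlapped between groups. Gabarapl1 (-0.96 ± 0.15), a protein of the autophagosome membrane, kept its call in each fit that left out 1 library, and Map1lc3b (-1.25 ± 0.21) missed it without Glut1Tg replicate 1 (adjusted p = 0.0535). Nfe2l2, an oxidative stress factor, was lower without overlap, at 161, 138, 185, 139.96 and 156 CPM in mouse group 1 and 54.5, 61.2, 49.3 and 44.1 CPM in mouse group 2. Nfe2l2 showed a fold of 0.3299 (95% interval 0.258 to 0.421; log2 -1.6000 ± 0.16; adjusted p = 0.00129).

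Several metabolic lists held more higher than lower calls with all 9 libraries, where 13.1% of all genes were higher and 11.0% lower. Cholesterol and fatty acid synthesis was higher in 12 and lower in 2 of 32 (median 0.80), the tricarboxylic acid cycle in 10 and 0 of 32 (median 0.17), fatty acid oxidation in 8 and 1 of 22 (median 0.35), the pentose phosphate pathway in 4 and 0 of 11 (median 0.48) and glycolysis in 6 and 2 of 26 (median 0.52). Within WT 1 fatty acid oxidation gene was higher, 1 cholesterol and fatty acid synthesis gene was lower, and no other member passed. Without WT replicate 2 and Glut1Tg replicate 1 the medians were 0.19, 0.12, 0.25, 0.37 and 0.10. In that fit 2 cholesterol and fatty acid synthesis genes and 1 glycolysis gene were lower, and 1 fatty acid oxidation gene was higher.

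Fdft1, squalene synthase, stood at 15.1, 15.4, 13.8, 26.01 and 16.4 CPM in mouse group 1 and 65.1, 35.3, 33.3 and 67.8 CPM in mouse group 2. Fdft1 showed a fold of 3.18 (95% interval 2.100 to 4.81; log2 1.67 ± 0.27; adjusted p = 0.00441). Its call was lost without Glut1Tg replicate 1 (adjusted p = 0.0503). Srebf1, the factor that drives fatty acid synthesis, was lower in all 4 libraries of mouse group 2 (-0.803 ± 0.13, adjusted p = 0.00424). Ogdh, a subunit of the oxoglutarate dehydrogenase, stood at 99.7, 117, 109.7, 106 and 104 CPM in mouse group 1 and 199, 165, 178 and 217 CPM in mouse group 2. Ogdh showed a fold of 1.800 (95% interval 1.49 to 2.17; log2 0.85 ± 0.12; adjusted p = 0.003). Eci1, an isomerase of fatty acid oxidation (1.13 ± 0.14), Ogdh and Srebf1 were called in every fit that left out 1 library. Sdha (0.605 ± 0.11), the pyruvate dehydrogenase subunit Dlat (1.03 ± 0.18), the pentose phosphate enzymes G6pdx (0.797 ± 0.17) and Rpe (0.96 ± 0.18) and Hk1, the first enzyme of glycolysis (0.54 ± 0.12), were higher without overlap and lost the call without Glut1Tg replicate 1 (adjusted p = 0.073 to 0.121). Pcx, pyruvate carboxylase, was high in 2 libraries only, at 2.82, 5.28, 3.53, 4.71 and 3.11 CPM in mouse group 1 and 40.05, 4.94, 5.64 and 64.5 CPM in mouse group 2.

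Slc2a1, whose transgene marks the Glut1Tg libraries, stood at 52.03, 58.7, 496, 279 and 457 CPM in mouse group 1 and 36.6, 33.3, 29.7 and 260.2 CPM in mouse group 2. Within each genotype every library of mouse group 2 lay below every library of mouse group 1. The fit with genotype gave -0.71 ± 0.19 (adjusted p = 0.0248), within WT it did not pass (-0.73, adjusted p = 0.0621), and the call was lost without WT replicates 1, 3 or 5 or Glut1Tg replicates 1 or 4 (adjusted p up to 0.127).

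Of 26 amino acid transport and ATF4 targets 8 were higher and 1 lower (median 0.21, against 0.16 within WT and -0.08 without WT replicate 2 and Glut1Tg replicate 1, where 0 were higher and 1 lower). Of 30 MYC targets and ribosome biogenesis genes 2 were higher and 1 lower, and their median turned from 0.36 (0.12 within WT) to -0.12 without those libraries, with 0 higher and 1 lower. Of 71 nuclear oxidative phosphorylation genes 4 were higher and 0 lower (median 0.09). None of 75 cytosolic ribosomal proteins and none of 13 mitochondrially encoded genes passed by edgeR, with medians of -0.34 and -0.28. Of the ribosomal proteins 74 had negative values, and 9 of 75 lay below mouse group 1 in every library, where 11.4% of all genes did. The ATF4 group included Aldh18a1 (1.6003 ± 0.299) and Mthfd2 (1.35 ± 0.25), of proline synthesis and the mitochondrial folate cycle, both lost without Glut1Tg replicate 1 (adjusted p = 0.097 and 0.0857).

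**Figure D5:**
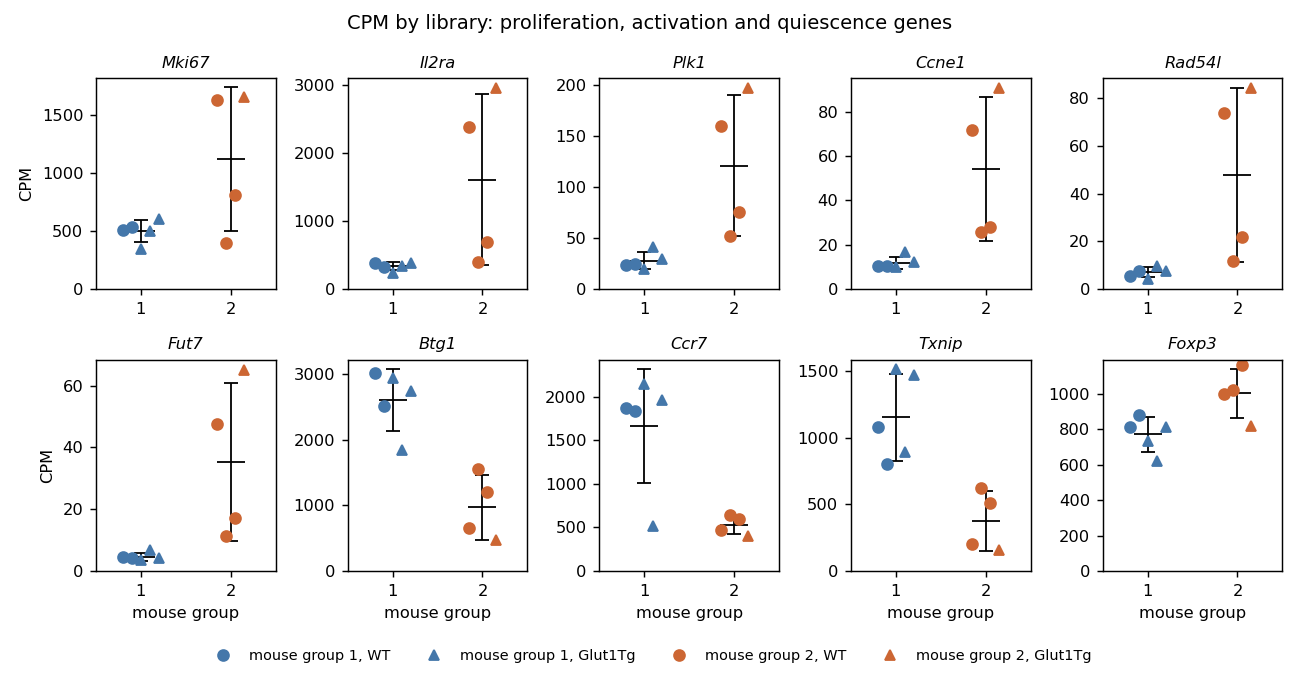
CPM of 10 genes of proliferation, activation, quiescence and identity in every library, by mouse group, with the mean and SD of each group as a line and bar. For Mki67 and Il2ra 2 libraries of mouse group 2 lie at 1621 and 1652 and 2386 and 2959 CPM, while the others lie at 393 and 808 and 397 and 690.03 CPM, and for Foxp3 the groups overlap.

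Regulatory T cell genes showed no common direction. Of 29 Treg identity genes 7 were higher and 4 lower (median 0.20; 0 and 1 within WT, none without WT replicate 2 and Glut1Tg replicate 1). Foxp3 stood at 814, 882, 733, 621 and 814 CPM in mouse group 1 and 1002, 1025, 1164 and 822 CPM in mouse group 2 and did not pass (0.27 ± 0.13, adjusted p = 0.166). Il2ra, the high-affinity chain of the receptor for interleukin-2, was found at 389.8, 319.9, 241, 343 and 378 CPM in mouse group 1 and 2386, 397, 690.03 and 2959 CPM in mouse group 2. Il2ra showed a fold of 4.99 (95% interval 2.23 to 11.2; log2 2.32 ± 0.51; adjusted p = 0.0138). Its lead over mouse group 1 was large in 2 libraries and slight in WT replicate 4, and the call was lost without Glut1Tg replicate 1 (adjusted p = 0.176). Ctla4, a coinhibitory receptor, was lower, at 654, 666, 621, 370.2 and 575 CPM in mouse group 1 and 383, 354, 368 and 367 CPM in mouse group 2 (-0.71 ± 0.17, adjusted p = 0.0197), with Glut1Tg replicate 3 of mouse group 1 among the values of mouse group 2 (without WT replicates 1 or 3 or Glut1Tg replicate 1 the adjusted p was up to 0.0773). Of 18 Treg effector genes 2 were higher and 1 lower, and of 27 interleukin-2 and STAT5 genes 4 and 3. Of all genes tested 13.1% were higher and 11.0% lower.

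T cell activation and immediate early genes were split, with 7 higher and 6 lower of 34 (median 0.20; 1 and 2 within WT, 2 and 1 without WT replicate 2 and Glut1Tg replicate 1). Egr2 (1.21 ± 0.25, adjusted p = 0.0101) and Nr4a1 (1.65 ± 0.31, adjusted p = 0.00786), both induced by the T cell receptor, were higher without overlap and lost the call without Glut1Tg replicate 1 (adjusted p = 0.124 and 0.103). Tagap, a GTPase-activating protein of activated T cells, was lower (-1.71 ± 0.303, adjusted p = 0.00626; 0.0549 without Glut1Tg replicate 1). Ier2, an immediate early gene in the list of heat shock and dissociation stress, stood at 88.97, 82.2, 124, 151 and 106 CPM in mouse group 1 and 163, 216, 249 and 215 CPM in mouse group 2. Ier2 showed a fold of 2.13 (95% interval 1.58 to 2.88; log2 1.09 ± 0.19; adjusted p = 0.00618). Of 17 genes in that list 3 were higher and 2 lower (median 0.31).

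Of 16 checkpoint receptors and ligands 4 were higher and 2 lower (median -0.21; 1 and 3 within WT). Cd200r1, an inhibitory receptor, stood at 5.12, 3.33, 1.89, 2.24 and 1.51 CPM in mouse group 1 and 19.4, 17.02, 16.6 and 8.02 CPM in mouse group 2. Cd200r1 showed a fold of 4.21 (95% interval 3.02 to 5.89; log2 2.08 ± 0.21; adjusted p = 0.00132). Pdcd1, the receptor PD-1, stood at 13.8, 11.7, 11.3, 8.23 and 11.3 CPM in mouse group 1 and 70.4, 23.6, 31.03 and 84.2 CPM in mouse group 2 (2.25 ± 0.37, adjusted p = 0.00474; 0.0691 without Glut1Tg replicate 1). Its ligand gene Cd274 was lower, at 108, 104, 98.6, 182 and 119 CPM in mouse group 1 and 40.6, 50.6, 54.7 and 40.5 CPM in mouse group 2. Cd274 showed a fold of 0.394 (95% interval 0.275 to 0.563; log2 -1.35 ± 0.23; adjusted p = 0.00553). The groups did not overlap in any of these genes. Of 19 TNF receptor genes 2 were higher and 1 lower, the lower being Tnfrsf26, a decoy-type receptor (-2.24 ± 0.36, adjusted p = 0.00456), and of 26 chemokine and homing receptors 1 and 4, the lower ones including Gpr183, an oxysterol receptor (-1.004 ± 0.17), and Cxcr4 (-1.59 ± 0.32). Cxcr4 lost its call without Glut1Tg replicate 1 (adjusted p = 0.0843).

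Among helper lineage genes, Th1 genes were higher in 6 and lower in 0 of 18 (median 0.96), Th17 genes lower in 5 and higher in 0 of 14 (median -0.40), Th2 genes higher in 2 and lower in 1 of 11 (median 0.16) and follicular helper genes in 1 and 1 of 12 (median -0.37). The defining Th1 genes were low, with Tbx21 at 1.06, 0.649, 0.895, 2.84 and 1.37 CPM in mouse group 1 and 5.88, 1.33, 2.49 and 17.1 CPM in mouse group 2 (2.53 ± 0.54) and Ifng at 0.7701 to 2.12 and 1.84 to 5.597 CPM (1.44 ± 0.39), and both overlapped and lost their calls without Glut1Tg replicate 1 (adjusted p = 0.172 and 0.287). In the Th17 list Ahr, the aryl hydrocarbon receptor (-1.02 ± 0.18), and Rora (-1.87 ± 0.304) were lower in every fit that left out 1 library, Batf (-0.87 ± 0.198) and Il1r1 (-1.36 ± 0.43) were not (adjusted p up to 0.086 and 0.262). Bcl6, the follicular helper factor, was lower with overlap (-2.299 ± 0.52, adjusted p = 0.0151; 0.0869 without Glut1Tg replicate 1) and passed within WT (-2.33, adjusted p = 0.0228).

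Interferon genes were mostly not called. Of 30 type I interferon-stimulated genes 2 were higher and 0 lower (median -0.11), of 22 guanylate-binding and immunity-related GTPases 3 and 2 (median -0.17; 3 and 0 within WT), and of 18 class I antigen presentation genes 2 and 4 (median -0.13). The medians of the first 2 lists turned positive within WT (0.33 and 0.22) and without WT replicate 2 and Glut1Tg replicate 1 (0.39 and 0.33). Glut1Tg replicate 3 had the highest mean of the interferon-stimulated list, at 1.07 relative to mouse group 1, where the rest of that group lay at -0.47 to -0.01 and mouse group 2 at -0.42 to 0.37. Iigp1, an immunity-related GTPase, was higher without overlap, at 77.4, 89.4, 77.3, 118 and 93.98 CPM in mouse group 1 and 214, 213, 198 and 252 CPM in mouse group 2. Iigp1 showed a fold of 2.54 (95% interval 2.03 to 3.18; log2 1.34 ± 0.14; adjusted p = 0.00149). Gbp9 was lower, at 133, 163, 65.2, 65.004 and 60.8 CPM in mouse group 1 and 19.6, 54.5, 51.3 and 12.1 CPM in mouse group 2. Gbp9 showed a fold of 0.244 (95% interval 0.149 to 0.398; log2 -2.04 ± 0.31; adjusted p = 0.00395). Irgm2 (0.97 ± 0.15) and Igtp (0.78 ± 0.22) were higher, but their annotated spans overlap on the same strand and reads could be shared. The class I genes H2-Q4 (-1.26 ± 0.24), H2-Q6 (-1.004 ± 0.28) and H2-D1 (-0.62 ± 0.16), near-identical copies among which reads can be split, were lower, and the immunoproteasome gene Psmb8 was higher (0.88 ± 0.21). All 4 lost their calls without Glut1Tg replicate 1 (adjusted p = 0.0691 to 0.227), as did Igtp (adjusted p up to 0.112).

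Signalling and stress lists were mixed, where 13.1% of all genes were higher and 11.0% lower. Of 26 p53 targets and apoptosis genes 4 were higher and 7 lower (median 0.09). The median was -0.05 within WT, with 0 higher and 3 lower, and -0.48 without WT replicate 2 and Glut1Tg replicate 1, with 0 and 2. Bbc3, the BH3-only gene Puma, stood at 82.2, 91.6, 113, 85.98 and 79.9 CPM in mouse group 1 and 21.7, 38.3, 31.4 and 32.4 CPM in mouse group 2. Bbc3 showed a fold of 0.3499 (95% interval 0.257 to 0.476; log2 -1.51 ± 0.197; adjusted p = 0.00218). Pmaip1, Noxa, was lower as well (-1.26 ± 0.17, adjusted p = 0.00243), while Trp53 itself was higher (100.04 ± 7.22 against 178 ± 34.97 CPM, SD, n = 5 and 4; 0.89 ± 0.14, adjusted p = 0.00401). Gadd45a, a growth arrest gene, was lower (-1.54 ± 0.26). All 4 were called in each fit that left out 1 library and did not overlap.

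Of 26 PI3K, AKT and mTOR genes 2 were higher and 5 lower (median -0.09). Rictor, which defines mTOR complex 2, was lower (171 ± 38.3 against 73.8 ± 16.7 CPM, SD, n = 5 and 4; -1.35 ± 0.199), and Mlst8, a subunit of both mTOR complexes (1.01 ± 0.15), and Prkaa1, a catalytic subunit of AMPK (0.83 ± 0.11), were higher. Of 23 TGF-beta genes 2 were higher and 5 lower (median -0.38), with the feedback gene Pmepa1 higher (0.97 ± 0.15) and Smurf1, a ligase for receptor-regulated Smads, lower (-1.29 ± 0.25; adjusted p = 0.0842 without Glut1Tg replicate 1). Of 25 hypoxia genes 3 were higher and 6 lower (median 0.01), of 23 endoplasmic reticulum stress genes 3 and 2 (median 0.22) and of 23 antioxidant and iron genes 3 and 3 (median -0.05). Of 26 genes of the T cell receptor complex and proximal signalling 1 was higher, the phosphatase gene Ptpn6 (1.18 ± 0.23), and 2 were lower, among them Bcl10 (-0.74 ± 0.14). Ptpn6 and Bcl10 lost their calls without Glut1Tg replicate 1 (adjusted p = 0.119 and 0.0787).

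The medians of several other lists changed sign without WT replicate 2 and Glut1Tg replicate 1. They were then -0.04 for endoplasmic reticulum stress, -0.02 for nuclear oxidative phosphorylation, 0.09 for the T cell receptor complex and proximal signalling, 0.04 for checkpoint receptors and ligands and 0.03 for Rab GTPases. The hypoxia median, close to 0 with all libraries, was -0.01.

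Across the 203 genes that the naming rule took, 184 were called in the comparison of the mouse groups. Of these, 70 stayed called in each of the 9 fits that left out 1 library, 23 higher and 47 lower. Without Glut1Tg replicate 1, 113 lost the call, and 65 of them lost it in no other of these fits. The rule favours genes with small p or large folds. Of all 3576 genes called, 656 were called without that library.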

How the data were processed

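RNA was extracted with RNeasy and sequenced from TruSeq Stranded mRNA libraries as 75 bp paired-end reads, per the labels' protocols. The authors' tools were bcl2fastq, TopHat2, featureCounts and DESeq2 with build mm10, per the submitters' processing notes. Versions and the strand setting of the counting are not stated in the sources available here. The authors deposited raw counts per gene for 9 libraries, and a table of normalised log2 values that served as an alternative.

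Genes were kept by filterByExpr with mouse group as the design, which left 14817. Libraries were scaled by TMM and tested with edgeR 4.0.16 (R 4.3.3) by the quasi-likelihood test, with genotype as a covariate and Benjamini-Hochberg adjustment at 0.05. The WT libraries alone and a mouse group by genotype interaction were fitted likewise. Alternatives used DESeq2 1.42.0, limma 3.58.1 and fits without single libraries. The test was run on simulated counts drawn independently for each library, which does not check it for libraries that lie apart.

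Genes are named by rule: up to 12 each way with the largest fold changes among called genes without overlap and at least 5 CPM, up to 4 called members of each list (or 2 by abundance), up to 5 each way within WT, 3 for the interaction, and Slc2a1, Foxp3, Mki67 and Il2ra. Genes outside this rule, including those of the clock, phosphatase and NF-kB lists that did not meet it, were chosen after their values were seen. The comparison and the gene lists were chosen with earlier results of these data known, and 8 lists were added after gene values had been seen. Replicate numbers were not taken to pair the libraries. Some genes that the rule or the lists hold are not reported here.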

Additional observations from a re-analysis of the deposited data

Results flagged for a closer look

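Of 406 groups of 4 or 5 libraries examined for the named genes, 50 held 1 library far from the others, where chance flags about 1 in 20 groups. Values are CPM, followed in parentheses by the range of the other libraries of the same mouse group. Of the 50, 43 were Glut1Tg replicate 3 of mouse group 1. Glut1Tg replicate 3 of mouse group 1 stood above its group for Ndufa9 at 78.0 (54.0 to 60.6), Cpa3 at 1670.0 (116 to 364), Mthfd2 at 42.3 (28.1 to 31.1), Hyal2 at 1.398 (0.690 to 0.877), Pgam1 at 123 (58.9 to 65.2) and Blk at 26.9 (9.002 to 10.1). To these are added Cd274 at 182 (98.6 to 119), Srsf1 at 113 (81.9 to 84.9), Itgb3 at 232 (49.1 to 66.4), Ccl1 at 1.60 (0.528 to 0.746), Mthfd1 at 34.8 (16.5 to 20.5) and Fdft1 at 26.0 (13.8 to 16.4). Also in that library and direction were Cyc1 at 111 (66.5 to 76.0), Cd74 at 216 (26.1 to 39.7), Cd163l1 at 25.8 (3.43 to 9.17), Pdia4 at 103 (42.5 to 54.6), Hspd1 at 155 (87.1 to 91.4) and Fam209 at 16.02 (6.86 to 8.85). To these are added Hsph1 at 40.3 (23.2 to 26.2), G6pdx at 64.5 (48.8 to 53.05), Eomes at 29.1 (5.12 to 8.01), Zfp7 at 13.4 (8.46 to 9.44), Ccnd3 at 200 (127 to 141) and Itga2b at 438 (31.5 to 70.8). Also in that library and direction were Shd at 10.2 (3.28 to 4.91), Wdr43 at 194 (145 to 158), Elovl6 at 43.7 (25.2 to 28.0), Rpia at 41.8 (22.4 to 24.6), Fcer1g at 110.0 (6.28 to 13.0) and Trp53 at 112 (93.5 to 98.6). To these are added Lyz2 at 206 (0.785 to 1.99) and Igtp at 726 (319 to 436). Glut1Tg replicate 3 of mouse group 1 stood below its group for Stat5a at 252 (349.7 to 374), Btg2 at 64.2 (166 to 206), Per1 at 240.4 (482 to 553), Rnf19a at 94.8 (254 to 307), Abcg1 at 50.6 (194 to 225) and Ulk1 at 113 (209 to 232). To these are added Birc3 at 173 (239.7 to 259), Tagap at 109.5 (274 to 304), Ccr7 at 512 (1837 to 2145), Ripk2 at 36.0 (90.3 to 102) and Zfp281 at 178 (427 to 526). WT replicate 4 of mouse group 2 stood above its group for Cpa3 at 524 (2.48 to 91.3) and Blk at 3.45 (0.227 to 0.695). Glut1Tg replicate 1 of mouse group 2 stood above its group for Slc2a1 at 260.2 (29.7 to 36.6) and Hist1h4f at 1.93 (0.431 to 0.659). It is the only library of mouse group 2 with the Slc2a1 transgene, and the groups examined took no account of genotype. Glut1Tg replicate 4 of mouse group 1 stood below its group for Mxi1 at 49.7 (59.2 to 61.1). WT replicate 1 of mouse group 1 stood above its group for Rbm39 at 1177 (993 to 1044). Glut1Tg replicate 2 of mouse group 1 stood below its group for mt-Co1 at 8075 (10350.0 to 11040.0).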

How the results depend on the processing

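The number of genes called between the mouse groups ranged from 668 to 4552 when each library was left out in turn (228 to 2497 higher, 440 to 2055 lower), with the lowest counts without Glut1Tg replicate 1 and the highest total without Glut1Tg replicate 3. It was 593 (213 higher, 380 lower) without WT replicate 2 and Glut1Tg replicate 1 together, and 1589 (754 higher, 835 lower) without both libraries with Xist, a setting chosen after seeing the data. Within WT, leaving out each library gave 0 to 2863 genes (0 to 1303 higher, 0 to 1560 lower), no filter gave 1172 (439 higher, 733 lower) and DESeq2 2123 (994 higher, 1129 lower). The interaction called 2 genes with DESeq2 and 0 to 123 when a library was left out. With the replicate block, 0 genes were called in all, 0 higher and 0 lower, by edgeR, and 4470 had an unadjusted p under 0.05. All 3576 genes called in the main fit kept their direction there. The block adds a term for each replicate number and leaves little from which to estimate the spread of 9 libraries. The 0 calls therefore do not show that the difference vanished. Residual r between the libraries of a number was 0.728 for number 1 and -0.261, -0.091 and -0.134 for numbers 2, 3 and 4. Glut1Tg replicate 1 is the only library of its genotype and mouse group. Its residuals can therefore be tied to those of other libraries by the fit, and these values cannot decide on pairing. The numbers were not taken to pair the libraries because the labels do not name a shared batch. Itgb3, at -0.19 and not called with all libraries, was at 1.105 (adjusted p = 0.00684) without the 3 libraries apart on components 1 and 2, a setting chosen after seeing the data. The share of calls that were higher was 54.4%, and 34.1% without Glut1Tg replicate 1, 35.9% without it and WT replicate 2, and 43% of 3322 calls without the 3 libraries apart. The causes were not tested.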

Other observations

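Among the genes near absent in all libraries of mouse group 2 was a pair on chromosome 4. They were chosen after their values were seen. The predicted gene 2610305D13Rik (chromosome 4 from 147611937 to 147642513, minus strand, mm10) had 291, 254, 223, 5 and 317 counts in mouse group 1 and 1, 0, 1 and 1 counts in mouse group 2, in the library order of the main text (edgeR adjusted p = 0.00395). Gm13225, on the same chromosome from 145510759 to 145539188 on the plus strand, had 212, 204, 189, 3 and 234 counts against 1, 0, 3 and 2 (edgeR adjusted p = 0.00633). Glut1Tg replicate 3 of mouse group 1 was far below the rest of its group in both genes.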
